A study of Drosophila melanogaster with 3 samples.

Results

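Far intergenic peaks are the sites of Eagle-GFP binding whose summit lay outside every annotated gene body and more than 5 kb from the nearest transcription start site (TSS). They were chosen by position alone from the peak list of the series that the authors call conservative, with transposon genes left out of the annotation. There were 383 of them among 9369 conservative peaks on the chromosome arms (4.09%). The peaks come from chromatin immunoprecipitation with sequencing (ChIP-seq) on intact prepupae of Drosophila melanogaster, whose age is labelled as 2 day. The animals were of the strain eg-GFP, with an insertion that targets eg and expresses an eg-eGFP fusion protein, and the precipitation used an antibody against GFP. All 3 biological replicates belonged to this 1 group, so no condition could be compared, and the whole animals mix every tissue. The label of the sex reads not collected, and the labels do not say how many animals were pooled.

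In flies, as in other animals, genes that pattern the body are often controlled by enhancers, stretches of DNA that bind several transcription factors and can act on a promoter from a distance. Enhancers of developmental regulators often lie far from the promoter, in introns or in long stretches between genes. Eagle, the product of eg, belongs to the knirps family of nuclear receptors without a known ligand and is best known from the serotonin neurons of the embryonic nerve cord. A peak marks DNA recovered with the tagged protein and does not show which gene, if any, the site acts on, so the genes given below are neighbours by position.

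The strength of each peak is given as the authors' signal value, which is scaled differently in each list. Differences between groups of peaks are described without a test, since peaks of 1 list are not replicates. Intervals on shares are 95% Wilson intervals and cover counting error only. The series list was derived from the alignments of all 3 replicates, so support of its peaks in the replicate lists is not independent of them. The read depth behind the peaks is unknown. Peak lists hold no expression level by which the labelled stage or strain could be checked.

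Sequences at the summits of some of the strongest members are shown first, as examples for the base composition described further on. Each is the summit base with 50 bp on either side, read on the forward strand of dm6, 5′ to 3′. They belong to 8 of the strongest members and to 2 more of the 20 strongest, which hold at least 1 of the motifs searched. Capitals mark such a motif or its reverse complement.

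Member 2, between lz and c12.1, X:9305875-9305975: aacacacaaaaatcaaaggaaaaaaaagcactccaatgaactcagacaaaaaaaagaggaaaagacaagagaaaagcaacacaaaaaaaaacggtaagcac
Member 3, between spel1 and ppk, 2L:14370088-14370188: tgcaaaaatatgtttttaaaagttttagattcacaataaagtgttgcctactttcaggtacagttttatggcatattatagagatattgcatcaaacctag
Member 5, between hng3 and CG13898, 3L:762472-762572: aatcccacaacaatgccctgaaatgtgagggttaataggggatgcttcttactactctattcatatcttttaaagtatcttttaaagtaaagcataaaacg
Member 6, between Awh and Fie, 3L:3879041-3879141: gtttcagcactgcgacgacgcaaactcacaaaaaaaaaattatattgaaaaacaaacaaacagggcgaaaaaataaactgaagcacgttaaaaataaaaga
Member 7, between CG18404 and heca, 3R:30265574-30265674: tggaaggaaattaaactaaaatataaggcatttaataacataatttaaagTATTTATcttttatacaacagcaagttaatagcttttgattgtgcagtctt
Member 9, between CG43336 and pxb, 3R:15651928-15652028: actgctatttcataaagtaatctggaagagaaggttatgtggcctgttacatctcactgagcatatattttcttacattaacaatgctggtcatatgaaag
Member 10, between Osi21 and CG14926, 2L:11324075-11324175: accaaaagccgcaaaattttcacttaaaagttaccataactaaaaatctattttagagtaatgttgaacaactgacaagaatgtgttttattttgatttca
Member 11, between hng3 and CG13898, 3L:787774-787874: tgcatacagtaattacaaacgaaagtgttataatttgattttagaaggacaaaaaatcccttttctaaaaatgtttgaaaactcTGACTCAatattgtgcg
Member 13, between hng3 and CG13898, 3L:781294-781394: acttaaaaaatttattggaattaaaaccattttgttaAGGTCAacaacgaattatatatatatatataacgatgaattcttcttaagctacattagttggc
Member 17, between CG7320 and CheA75a, 3L:18223567-18223667: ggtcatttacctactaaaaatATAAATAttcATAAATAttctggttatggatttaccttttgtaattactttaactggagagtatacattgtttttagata

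The 10 sequences are rich in A and T. Their GC content runs from 23.8% in members 7, 13 and 17 to 34.7% in member 9.

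The strongest far intergenic peak lay between Su(z)2, a relative of the Polycomb group gene Psc, and CG13323, at 2R:13035043-13035490. Its signal was 2432, rank 12 of the conservative list, and its summit was 11.9 kb from the TSS of CG13323. In the replicates' own lists its signal was 895 in replicate 1, 804 in replicate 2 and 714 in replicate 3. These were the highest values of any member in replicates 1 and 2. The next member, X:9305769-9306072, had a signal of 1560 and lay between lz, which encodes a Runx factor of eye and blood cell development, and c12.1. Its replicate signals were 375, 487 and 739, with the highest in replicate 3, the reverse of the order at the first member.

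The remaining 18 of the strongest 20 members had signals from 830 to 457. Member 3, between the mismatch repair gene spel1 and ppk, a sodium channel gene of sensory neurons, had a signal of 830 with replicate values of 291, 244 and 295. Member 4 lay between betaTub60D, a tubulin gene, and slbo, which encodes the C/EBP factor of border cells. Its signal was 819, with replicate values of 368, 245 and 200.7. Member 6, beside the LIM homeodomain gene Awh, had a signal of 783 and replicate values of 167, 288 and 327, the lowest in replicate 1. Member 8 lay 5.27 kb from the TSS of ptc, the gene of the Hedgehog receptor, with a signal of 672 and replicate values of 213, 213 and 266.

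Replicates were closest at member 16, beside the glycosyltransferase gene Pgant2, with 148, 158 and 156, and at member 10, 19.1 kb from the TSS of CG14926, with 205, 194 and 206. As a ratio they were farthest apart at member 14, beside NijA, a gene for a cell surface protein of the ninjurin family, with 73.4, 190 and 245. In units of signal the span was wider at member 2. Another member of the same interval, member 15, had the opposite order, with 223, 153 and 110. No replicate was highest at every one of the 20 sites.

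**Figure D1:**
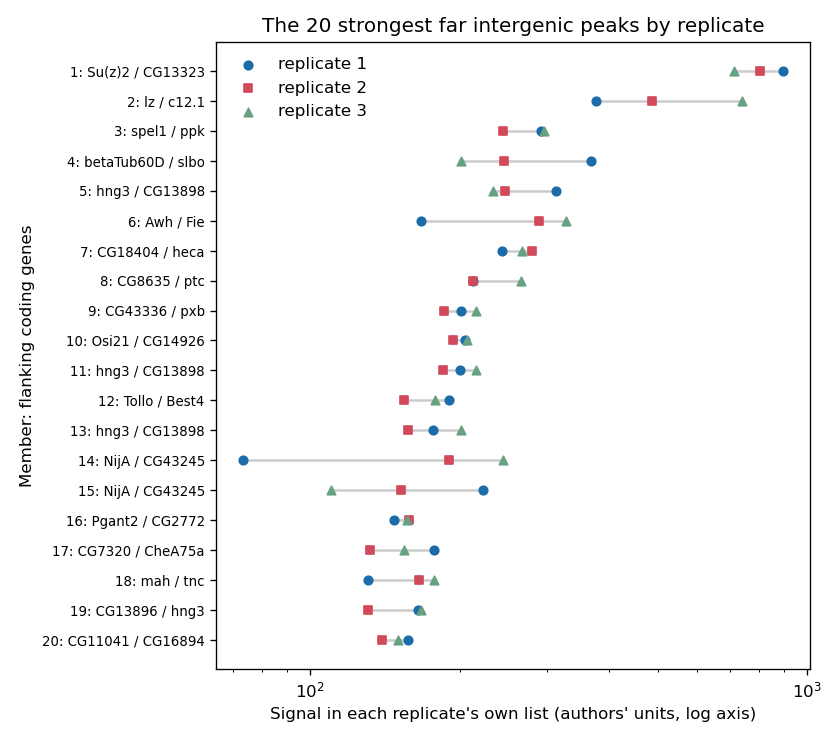
Signal of the 20 strongest far intergenic peaks in the thresholded list of each replicate, on a log axis in the authors' units, with the flanking coding genes at the left. Points are the 3 replicates and the grey line joins the lowest and the highest. The peak beside Su(z)2 is the highest in replicates 1 and 2, and member 14 beside NijA has the widest range as a ratio, from 73.4 to 245.

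All of these 20 were overlapped in all 3 replicate lists, and 9 of them lay on 3L. Ranked by signal, the first member that was not overlapped in all 3 was number 67, with a signal of 237 and 2 replicates. Far intergenic peaks were few among the strongest of the list: 2 were among the top 100 peaks and 21 among the top 1000. The median signal of the members was 126 (95% interval of the median 116 to 136), against 139 for summits outside genes at 0.5 to 5 kb from a TSS, 141 for promoter summits (within 0.5 kb of a TSS) and 137 for the whole list.

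Of the 383 members, 145 were overlapped by at least 1 bp in the thresholded lists of all 3 replicates (37.9%, interval 33.1 to 42.8), 76 in 2, 83 in 1 and 79 in none (20.6%, interval 16.9 to 24.96). Over all conservative peaks, 43.8% were overlapped in all 3 and 16.4% in none. Replicate 1 overlapped 59.0% of the members, replicate 2 54.6% and replicate 3 61.4% (58.3% ± 3.45, SD, n = 3). For all conservative peaks these shares were 58.8%, 61.7% and 70.5% (63.7% ± 6.06, SD, n = 3). The share for the members was close to that for the whole list in replicate 1 and below it in replicates 2 and 3, a difference that was not tested. In the longer ranked lists of the replicates, which hold peaks before the threshold on reproducibility, 363 members (94.8%) were overlapped in all 3 and 0 in none. Of all conservative peaks, 91.5% were overlapped there in all 3 and 1 in none.

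Support went with signal. The median signal was 226 for members with all 3 replicates, 137 for those with 2, 98.2 for those with 1 and 86.0 for the rest. The conservative list was cut by signal into 4 bands of equal size. In the strongest band 69 of 70 members were overlapped in all 3 replicates (98.6%, against 97.1% of all peaks there). In the next band 59 of 100 were (59.0% against 60.1%), then 10 of 124 (8.06% against 9.61%) and in the weakest band 7 of 89 (7.87% against 8.49%). The members fell unevenly over these bands, with 18.3% in the strongest and 32.4% in the second weakest. In that second weakest band 26.6% of the members were in no replicate list, against 14.9% of all peaks and 13.1% of the summits at 0.5 to 5 kb. In the weakest band these shares were 51.7%, 50.4% and 56.5%.

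**Figure D2:**
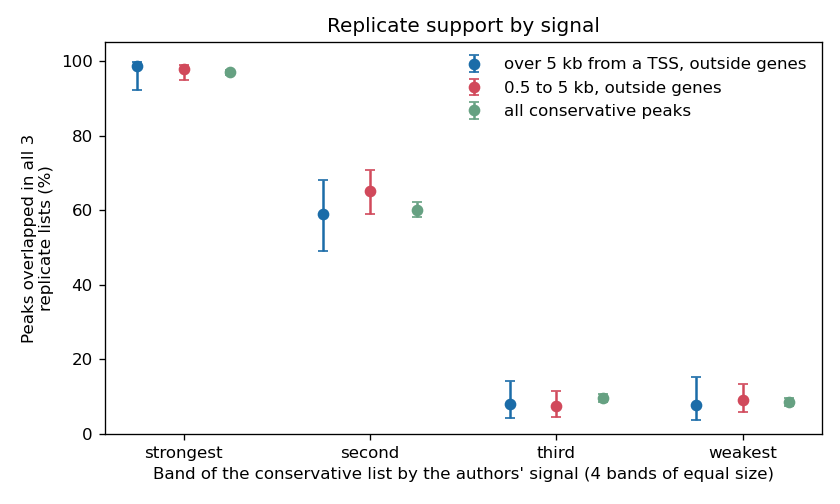
Share of peaks overlapped in all 3 replicate lists, in %, in 4 bands of equal size of the conservative list ranked by the authors' signal. Points are far intergenic members, summits outside genes at 0.5 to 5 kb and all conservative peaks, and bars are 95% Wilson intervals. In each band the 3 groups lie close together, from 97.1% to 98.6% in the strongest and from 7.87% to 9.05% in the weakest.

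Some members overlapped another conservative peak and can gain support from the same replicate peak as that neighbour. There were 64 such members (16.7%, against 14.8% of the whole list), and they included all 20 members with a signal under 20. Of the 319 members that overlapped no other, 132 (41.4%) were in all 3 replicates and 61 (19.1%) in none. One example lies beside hry, the pair-rule gene hairy, where members with signals of 166 and 26.9 overlap. Both carry the same replicate values of 61.2, 57.0 and 37.3.

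The replicates' own lists were also searched by the rule. Replicate 1 held 266 far intergenic summits of 6213 peaks (4.28%), replicate 2 held 209 of 6023 (3.47%) and replicate 3 held 254 of 7476 (3.40%), which gives 3.72% ± 0.491 (SD, n = 3). Most of them lay on members of the conservative list, with 220, 197 and 222 that overlapped one. The other thresholded lists of the series held 365, 545 and 386 far intergenic summits, between 4.42% and 4.65% of their peaks.

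Just inside the limit, the nearest members lay 5019 bp from the TSS of CG6163 (signal 82.6), 5077 bp from that of lncRNA:CR45052 (signal 198) and 5100 bp from that of lncRNA:CR42755 (signal 229). Just outside it, summits lay 4987 bp from the TSS of Eip93F (signal 94.5), 4999 bp from a tRNA gene (signal 205) and 5000 bp from that of hid (signal 294). The median distance of the members from a TSS was 8.34 kb, with quartiles of 6.53 and 12.4 kb. For 253 members (66.1%) the nearest TSS belonged to a protein-coding gene. The 5 farthest members all lay on 3L, from 35.0 to 39.0 kb from a TSS, and had signals of 99.1 to 157.

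The farthest member was 39.0 kb from the TSS of GluRIB, a glutamate receptor gene, in the interval toward the peptidoglycan recognition gene PGRP-LA. Its signal was 101.4, and it was found in replicate 3 alone, at 41.3. The second, 37.7 kb from bab2 in the stretch between bab1 and bab2, a pair of BTB factor genes of leg and abdomen, had a signal of 99.1 and was in no replicate list. Another, 36.2 kb away in the interval of vvl, had replicate signals of 32.1, 43.1 and 44.6. Of the remaining pair, both in the interval beside NijA, 1 was in all 3 replicates, with 40.3, 56.8 and 79.5, and the other was in none.

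The rule could select 20.1 Mb of sequence, 15.01% of the arms, which gives 19.1 members per Mb. Of this sequence, 8.83 Mb lay beyond the outermost conservative peaks of the arms, where the list holds no peak of any class. Between the outermost peaks the density was 34.0 per Mb. There it was 61.4 summits per Mb at 0.5 to 5 kb from a TSS, 39.7 at 5 to 10 kb, 31.0 at 10 to 20 kb and 28.7 at 20 to 50 kb. Beyond 50 kb there was no summit in 0.564 Mb. The share in all 3 replicates was 33.1% of 245 members at 5 to 10 kb, 45.3% of 106 at 10 to 20 kb and 50% of 32 at 20 to 50 kb. The share was thus not lower among the more distant members.

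**Figure D3:**
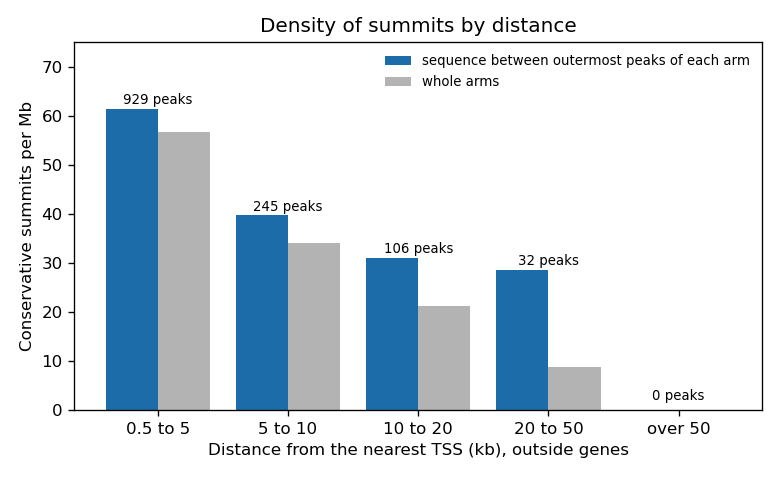
Conservative summits per Mb of sequence outside genes, by distance from the nearest TSS in kb. Blue bars use sequence between the outermost conservative peaks of each arm and grey bars whole arms, and the number of peaks stands above each pair. The blue bars go from 61.4 at 0.5 to 5 kb to 28.7 at 20 to 50 kb.

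The arms differed in the number of members. There were 148 on 3L, 81 on 2L, 72 on 3R, 59 on 2R, 23 on X and none on chromosome 4, where the conservative list has no peak. Between the outermost peaks, 3L had 58.7 members per Mb of selectable sequence, 2R 40.1, 2L 36.0, 3R 27.7 and X 9.49. Over whole arms 3L had 26.5, 2L 25.99, 3R 19.1, 2R 12.9 and X 7.87, so 3L was highest and X lowest by both measures, while the order of the others changed. X held no fewer conservative peaks of all classes per Mb of arm than the 4 long autosomal arms (78.9, against 64.9 to 73.8), and far intergenic members were 1.24% of its peaks, against 7.13% on 3L. The share of X members in all 3 replicates was 30.4% and their median signal 104, against 39.2% and 126 on 3L. The part of the lower signal of X members in their number was not tested.

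Annotated transposon genes made up 10.9% of the selectable sequence between the outermost peaks. No member had its summit in one, which allows a share of up to 0.783%. At 0.5 to 5 kb, 6 of 929 summits lay in a transposon gene. Lower-case letters, which mark repeats in the reference, made up 31.4% of all selectable sequence, including that beyond the outermost peaks. In the window of 50 bp on either side of the summit their median share was 20.8% for members, against 21.8% for all conservative peaks. A share of all bases and a median over windows are unlike measures, so the selectable sequence and the windows cannot be compared by these values. The sources used here do not say how reads that match several places were treated.

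Distances between members were measured along the chromosomes. Linking summits within 5 kb of each other put 242 members (63.2%) in 88 clusters, the largest of which had 8, and the median distance to the nearest other member was 2.15 kb. When members that overlap each other were counted once, as 351 regions, 197 of these (56.1%) were in 75 clusters. For the summits at 0.5 to 5 kb, with overlapping peaks counted separately as for the 63.2%, the share linked within their own class was 54.8%. Linking all conservative summits, whatever their class, in the same way joined 79.0% of them to another. These sets differ in size, with 929 and 9369 summits against 383, and a denser set links more readily. The shares thus do not show whether members cluster more or less than other peaks. The 86 members in clusters of 4 or more had a median signal of 143 and were in all 3 replicates in 47.7% of cases. The 156 in clusters of 2 or 3 had a median signal of 113 and were in all 3 in 30.8%, and the 141 lone members had 132 and 39.7%. Neither signal nor support thus rose steadily with the size of the cluster, where overlapping members were counted separately. Some clusters of 2 are a single overlapping pair, such as that beside fz, with signals of 163 and 2.45. Whether the same order holds over separate sites was not tested.

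Intergenic intervals with sequence open to the rule numbered 1422, and 184 of them (12.9%) held a member. Those with a member were longer, with a median of 19.3 kb against 12.3 kb. The 10 fullest held 82 members (21.4%) in 1.63% of the selectable sequence. The fullest was the 75.05 kb between NijA and CG43245 at 3L:10696878-10771924, with 14 members, 7 of them in all 3 replicates and 1 in none. Its highest signal was 515, and clusters of 7 and of 4 members lay inside it.

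The second interval ran from a tRNA gene beside hng3 to CG13898, at 3L:770463-803426, with 10 members in 33.0 kb and 7 of them in all 3 replicates. Members 11 and 13, whose sequences are printed above, lie in it. Member 11 had a signal of 601 and replicate values of 200, 185 and 215. Member 13 had 516 and replicate values of 177, 157 and 201.05. In total 16 members had hng3 as a flanking coding gene, more than any other gene, and 11 of these were in all 3 replicates.

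The third interval, 33.6 kb between Qsox2, a sulfhydryl oxidase gene, and Eip93F at 3R:21915547-21949113, held 10 members. Eip93F is induced by ecdysone, the steroid hormone of metamorphosis, and is known as a factor of adult fate and of tissue breakdown in pupae. The strongest member there had a signal of 342 and lay 17.7 kb from the TSS of Eip93F, with replicate values of 140, 130 and 71.1. The next, at 11.8 kb, had a signal of 292 and replicate values of 117, 103 and 81.7. Replicate 3 was the lowest at both. Of the 10, 4 were in all 3 replicates, and the 3 nearest to Qsox2 were in none. In this interval 6 members overlapped another peak, so the 10 are fewer separate sites.

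The interval between CG18404 and heca (headcase, a regulator of imaginal cells) was the densest of the 10, with 8 members in 10.4 kb of selectable sequence. Its strongest, member 7, had a signal of 769 and replicate values of 243, 279 and 266. Of the other 7, 1 was in all 3 replicates and 4 were in none. Of the 8 members, 4 overlapped another peak, so there are fewer separate sites, and the lowest signal was 5.90. The interval between Aps, a phosphatase gene of inositol pyrophosphates, and CG14147 held 8 members, 4 of them in all 3, with a highest signal of 386. That between CG43402 and CG31928 held 8, with a highest signal of 231 and 3 in all 3. The 36.8 kb interval of the strongest peak, between Su(z)2 and CG13323, held 7 members, 6 of them in all 3 replicates.

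Smaller groups lay beside other regulators. Beside ham, which encodes a PRDM zinc finger factor of neuron fate, 6 members lay in the interval toward CG15167, with a highest signal of 240 and 3 in all 3 replicates. Of the cluster of 5 among them, 4 overlapped another peak. The gene vvl, a POU homeodomain factor of trachea and neurons, flanked 6 members, 4 of them in all 3 replicates, and each was in at least 1. The strongest had a signal of 327, lay 33.8 kb from the TSS of vvl and had replicate values of 119, 111 and 98.6. Other clusters of 4 or more lay beside CG6163, between Ir67c and Gem3, between Tollo and Best4, beside Pgant2 and beside CG13896.

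**Figure D4:**
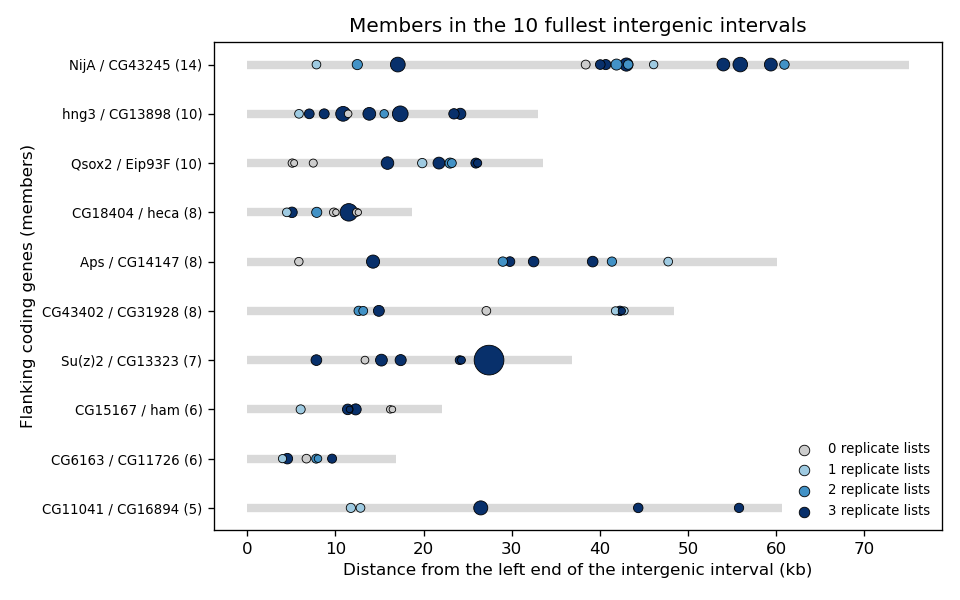
Members in the 10 intergenic intervals with the most members, by distance in kb from the left end of each interval (grey line). The area of a point grows with the authors' signal and its shade gives the number of replicate lists that overlap it. The interval of NijA holds 14 members and that of Su(z)2 the peak with a signal of 2432.

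Each member was assigned the nearest protein-coding gene on either side of its interval, beyond a non-coding gene where one forms the edge. A gene said to be beside a member is such a flanking gene at any distance, with a median of 14.3 kb from the summit to the gene body and a largest value of 124 kb. Distance from a TSS is not distance from a gene body: 77 members (20.1%) lay within 5 kb of a body, at the far end of the gene. The farthest member from a TSS was 2.46 kb from the body of GluRIB, and the second 0.849 kb from that of bab2. Such genes numbered 2067 around all selectable sequence, and 327 of them (15.8%) flanked a member. Genes that flanked one had more selectable sequence beside them, with a median of 16.5 kb against 5.13 kb for those that did not. Counts for the larger gene lists are therefore given with that length and with members per Mb. Over all 2067 genes the median was 6.82 kb and the density 19.1 members per Mb. All densities for genes are over whole arms, including the sequence beyond the outermost peaks. Between the outermost peaks the members lay at 34.0 per Mb, and the gene lists were not recomputed there. Neighbouring genes of a list can share a member, and how far length alone sets the shares was not tested. The lists are selections and do not hold every gene of the class they are named for. Each share is thus for the listed genes only.

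Genes for signals and receptors of the Wnt, Notch, Hedgehog, Dpp, EGF, FGF and JAK-STAT pathways, which pass information between cells, flanked a member in 14 of 20 (70.0%, interval 48.1 to 85.5, against 15.8% of all). The median selectable sequence per gene was 14.2 kb and the density 81.1 members per Mb, and the 14 genes shared 18 members. They were ptc, pyr, ths, sog, Ser, fz, dpp, htl, Wnt4, wg, Wnt6, Wnt10, hh and vn, while Delta, Egfr, Wnt2 and the JAK-STAT ligand genes upd1, upd2 and upd3 flanked none. After ptc, the strongest member lay between the FGF ligand genes pyr and ths, 18.1 kb from the TSS of ths, with a signal of 237 and replicate values of 77.8, 83.7 and 62.7. That beside sog, whose product binds Dpp-type ligands, had a signal of 217 and replicate values of 77.1, 65.5 and 79.8. Members beside wg and hh, the founding genes of Wnt and Hedgehog signalling, were weaker: the strongest had signals of 128 and 103 and each was found in replicate 2 alone, at 41.7 and 44.6. Only 5 of the 14 genes flanked a member found in all 3 replicates.

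The listed zinc finger, T-box, forkhead and other patterning factor genes flanked a member in 17 of 38 (44.7%, interval 30.1 to 60.3), with 10.8 kb per gene and 52.5 members per Mb. The list leaves out some such genes, among them ham. For the listed genes, the strongest member lay beside chinmo, a BTB zinc finger gene of neuronal timing, with a signal of 366 and replicate values of 146, 94.7 and 119. The T-box gene mid flanked 5 members, the strongest with a signal of 252 and replicate values of 86.1, 75.3 and 87.7. Between salr and salm, the spalt pair of zinc finger genes, there was a member with a signal of 242, 17.8 kb from the TSS of salm, with replicate values of 85.8, 69.6 and 70.0. Of the 17 genes, 7 flanked a member found in all 3 replicates.

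The homeodomain factor genes of the list, which is not complete, flanked a member in 11 of 45 (24.4%, interval 14.2 to 38.7). They had 10.1 kb per gene and 27.1 members per Mb, and 9 of the 11 had one in all 3 replicates. Besides Awh and vvl the 11 included Dr, the fly relative of Msx genes, with a signal of 253 and replicate values of 91.4, 64.5 and 83.0. The gene hth, whose product is a partner of Hox proteins, flanked a member with a signal of 214 and replicate values of 51.4, 74.2 and 92.9. The Hox genes Ubx, abd-A, Antp, Scr and Dfd lie beside selectable sequence and flanked none.

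Axon guidance and synaptic adhesion genes had more selectable sequence beside them (13.7 kb per gene) and flanked a member in 5 of 35 (14.3%, interval 6.26 to 29.4; 14.02 members per Mb). The strongest was beside Tollo, a Toll-family receptor gene, with a signal of 532 and replicate values of 190, 154 and 178 at 25.2 kb from its TSS. The receptor gene robo3 had a member with a signal of 177 and replicate values of 41.4, 53.9 and 69.2. Genes of the Dpr and DIP families, surface proteins that match neurons to partners, flanked a member in 1 of 21 (4.76%, interval 0.846 to 22.7), with 10.2 kb per gene and 1.06 members per Mb. That gene was dpr17, with a signal of 279 and replicate values of 82.7, 107 and 97.0.

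The listed ion channel and neurotransmitter receptor genes flanked a member in 3 of 24 (12.5%), with 7.35 kb per gene and 13.6 members per Mb. The list leaves out some such genes, among them ppk, which flanked 5 members, 2 of them in all 3 replicates. None of the members beside a gene of the list was in all 3 replicates. A single one lay between nAChRalpha2 and nAChRbeta2, genes for acetylcholine receptor subunits, with a signal of 129 and a value of 58.7 in replicate 2 alone. Chemosensory receptor genes flanked one in 6 of 39 (15.4%), close to the share of all genes, with 9.16 kb per gene and 28.7 members per Mb. The strongest had a signal of 432 and replicate values of 151, 133 and 144. Its coding gene on the left was Or67d, the receptor gene of a male pheromone, 102 kb away beyond a non-coding gene, and CG12362 on the other side was nearer, at 36.0 kb. Ribosomal protein genes had 2 of 9, RpL22-like and RpL10Aa, with 24.2 kb per gene and 4.79 members per Mb, and neither member was in all 3 replicates.

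The lists for hormone response and lineage were small because few of their genes lie beside selectable sequence. Of 4 ecdysone response regulators, Eip93F and Blimp-1 flanked a member and Eip75B and svp did not. The member of Blimp-1, a repressor that times prepupal events, had a signal of 91.5 and was found in replicate 3 alone, at 43.0. Of 5 listed bHLH genes, hry alone flanked a member. It flanked 7, 4 of them in all 3 replicates, the strongest with a signal of 188 and replicate values of 53.8, 69.2 and 53.7. Among 9 genes of serotonin neurons and the NB7-3 lineage, in which Eagle acts in the embryo, en and eg flanked a member. The strongest beside en, the segment polarity gene engrailed, had a signal of 144 and replicate values of 47.1, 44.9 and 61.2, and lay between en and inv.

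Of the knirps family genes, eg flanked 3 members, upstream of its TSS toward CG7370. Their signals were 93.3, 52.0 and 8.27, and none was in a replicate list. The pair with 93.3 and 8.27 overlapped each other. The gene knrl flanked 5, in the interval toward Rcd2. The strongest had a signal of 147 and replicate values of 37.5, 40.05 and 67.5, and of the other 4, 1 was in 2 replicates, 1 in 1 and 2 in none. The gap gene kni lies beside selectable sequence and flanked none.

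Markers of single tissues were looked at because whole animals were used. Trachea genes flanked a member in 3 of 8 (37.5%, interval 13.7 to 69.4), with 28.5 kb per gene and 28.1 members per Mb. They were led by tnc, a matrix protein gene, with a signal of 462 and replicate values of 130, 166 and 177. Neuron genes had 2 of 5, brp (signal 322, replicate values 82.2, 136 and 123) and futsch (signal 229, replicate values 95.04, 73.8 and 76.5), genes for an active zone protein and a microtubule-binding protein. The member beside brp lay in a gap of 0.381 kb between brp and CG1888, 0.228 and 0.154 kb from their bodies. The haemocyte list had 1 of 2, lz, the midgut list 1 of 7, esg, with a signal of 160, and the Cpr cuticle protein genes 1 of 12, Cpr35B, with a signal of 107. None of 3 muscle, 4 fat body, 2 glia, 2 germline and testis, 3 epidermis and cuticle genes and 1 neuropeptide gene flanked a member. With so few genes beside selectable sequence, these lists give no comparison between tissues or with the 15.8% of all genes.

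The members had a low GC content at the summit with a GC-richer border on both sides. In the window of 50 bp on either side of the summit the median GC content was 31.7% (quartiles 26.7 and 38.1), and in the windows of that size 300 bp away, averaged over both sides, it was 46.5%. The summit was lower than its own flanks in 307 of 383 members (80.2%), and the median difference, summit minus flanks, was -16.3 percentage points. All selectable sequence had 40.5%, so the summits lay below it and the flanks above. The same comparison gave 73.3% of summits at 0.5 to 5 kb (difference -11.9), 55.3% of promoter summits (difference -2.97) and 65.5% of all conservative peaks (difference -7.92).

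Among the members the dip went with support. The summit was lower in GC in 130 of 145 members found in all 3 replicates (89.7%), with a median of 29.7%, and in 54 of 79 found in none (68.4%), with a median of 33.7%. Of those 145 and 79 members, 13 and 18 overlapped another conservative peak. Over the 319 members that overlapped no other, the median at the summit was 29.7%. The dip was not compared by support among these alone. In the mean profile the members reached 33.9% in 51 bp at the summit and 48.1% at 150 bp to its right, and were back at 40.6% at 600 bp to its left. Summits at 0.5 to 5 kb had 34.8% at the summit and 44.9% at 150 bp, and promoter summits 39.7% and 43.1%. The part of base composition in where summits were called was not tested.

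**Figure D5:**
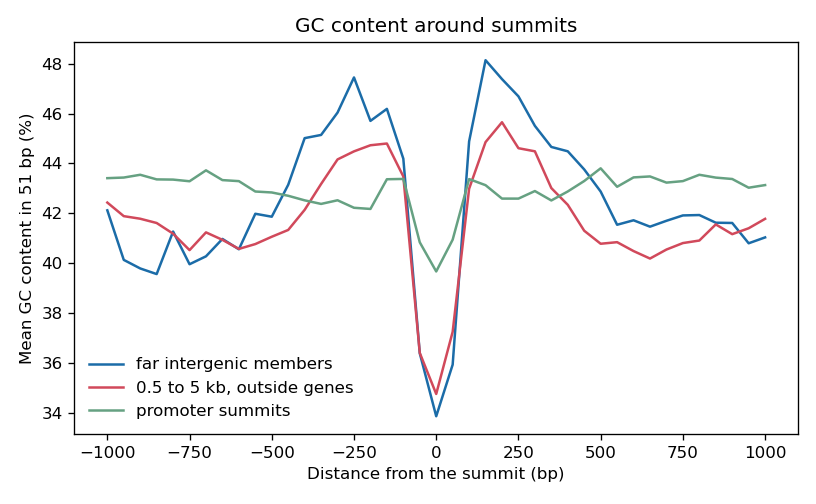
Mean GC content in 51 bp windows, in %, by distance from the summit in bp. Lines are the 383 far intergenic members, the 929 summits outside genes at 0.5 to 5 kb and the 3580 promoter summits. The members go from 33.9% at the summit to 48.1% at 150 bp.

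In these windows 10 short motifs were searched on both strands. TATTTAT was in 37 members (9.66%, interval 7.09 to 13.03), against 9.55% of all conservative summits and 5.74% and 6.79% of the windows 300 bp to the left and right of the members. It is made of A and T alone, and members 7 and 17 show it. AGGTCA, the half-site bound by many nuclear receptors, was in 8 members (2.09%, interval 1.06 to 4.07), against 1.76% of all summits and 0.522% and 1.31% of the flanking windows. TGAGTCA, the letters of the AP-1 element, was in 4 (1.04%) against 0.854% of all. Member 13 shows AGGTCA, and member 11 the reverse complement of TGAGTCA.

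Some motifs were at lower shares than in the list as a whole. GAGAGAG, bound by the GAGA factor, was in 4 members (1.04%, interval 0.407 to 2.65), against 3.71% of all summits and 4.97% of promoter summits. At 0.5 to 5 kb the share was 2.05%, and in the members' windows to the left and right it was 0.783% and 1.83%. CACACACA was also in 4 (1.04%) against 3.10% of all, 1.94% at 0.5 to 5 kb, and 2.61% and 3.66% of the members' flanking windows. CAGCTG, an E-box, was in 8 (2.09%) against 3.47% of all, 2.37% at 0.5 to 5 kb, and 4.44% and 3.92% of the flanking windows. CACGTG was in 3 (0.783%), against 0.865% of all and 0.215% at 0.5 to 5 kb. TAGAGCA was in 2 (0.522%), against 0.736% and 0.969%, and the DREF element TATCGATA in 2, against 0.651% and 0.323%. CAGGTAG, bound by Zelda, was in none, which allows up to 0.783% by 3 counts, against 0.320% and 0.323%. GAGAGAG and CACACACA share the interval of 0.407 to 2.65, which lay below their shares of all summits and held their shares at 0.5 to 5 kb. Counts of the other motifs here are too small to set the members apart from the list. CAGCTG reads alike on both strands, as do CACGTG and the DREF element. A match is a description of letters and not of a bound site, and none of these shares was tested.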

How the data were processed

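Peaks of 3 biological replicates in 1 group were analysed. Per the labels, the authors deposited peak lists on dm6 that were ranked, or thresholded, by the irreproducible discovery rate (IDR), a measure of how well peak ranks agree. Replicate lists came from 1 replicate's alignments and series lists from those of all 3. The signal, deposited for every peak, is the strength that the authors' caller gave it. Which aligner and caller were used is not given in the sources used here, and a named control experiment was not analysed here. In the ranked series lists, 32 columns of values for single members were not used, as nothing ties them to a replicate.

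A summit is the peak start plus the deposited offset. Genes came from Ensembl release 115, without transposon genes, and sequence from the RefSeq copy of dm6. Overlap means at least 1 bp, a replicate's value is that of the strongest overlapping peak in its thresholded list, and clusters link summits within 5 kb. Flanking coding genes are the nearest on each side of the intergenic interval. Named are those of the 20 strongest members found in all 3 replicates, of up to 10 clusters of 4 or more, of the 5 farthest members and of up to 4 genes per list, by signal. Remaining names, such as wg, hh, en and the other genes of a list with or without a member, were chosen after their values were seen. The 22 gene lists had 507 entries. For 6 an older symbol was replaced through the RefSeq gene table, some more were respelled by hand after a first run, and 0 stayed unmatched.

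The members and lists were chosen with earlier results of these data known. Support by band of signal, the profile and flank comparison of GC content, the share of masked bases, the count in transposon genes, the fullest intervals, the sequence beside listed genes, the distance to flanking gene bodies and the density between outermost peaks were added beyond the design or after values were seen. No test was run. Samples came from separate biological replicates per the labels, and means are given with their SD. The routines were checked on simulated data. Tools were matplotlib 3.10.9, SciPy 1.17.1, pandas 2.3.3 and NumPy 2.4.6 under Python 3.11.15.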

Additional observations from a re-analysis of the deposited data

How the results depend on the processing

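The results were recomputed under other settings, with 241 values in all, of which 172 stayed within the SD, the interval or, for counts and densities, 1.5 times the reported value, and 69 did not. None of these values has a test or a sign. A distance of over 3 kb gave 619 members, over 10 kb 138, and coding genes alone 747; for the replicates' own lists these gave 6.199%, 1.497% and 7.30%. Peaks above the median signal of the list held 170 members, with 75.3% in all 3 replicates, 0% in none, 91.0% in a single replicate on average, a median signal of 209, 8.46 per Mb, 38.2% in clusters and 9.48% of genes flanking one. Over 10 kb, the shares were 46.4% in all 3, 16.7% in none and 65.2% per replicate, the median 139, the density 10.7 per Mb and the genes 12.6%. With coding genes alone the density was 28.7 per Mb, 70.4% were in clusters and 20.6% of genes flanked one. In the longest other series list, 26.2% were in all 3, 36.3% in none and 43.7% in a replicate, with a median of 100.5 and 21.4% of genes. Asking for an overlap of 50% of each peak gave 25.3%, 29.0% and 47.7%, and ranked replicate lists 94.8%, 0% and 98.3%.

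Leaving out each replicate kept members found in both others: 167 to 176 members, a median signal of 202 to 209, 8.31 to 8.76 per Mb, 42.3% to 44.3% in clusters and 8.76% to 9.29% of genes. The share in both others was 43.6% to 46.0%, and in neither 25.6% to 30.3%. These settings keep fewer peaks by construction. Linking within 2 kb or 10 kb put 48.0% or 71.0% in clusters, and counting overlapping members once, chosen after seeing the data, 56.1%. Of 130 motif values, 11 moved, 5 of them in windows of 100 bp on either side. No paired analysis was possible because there is 1 group and no test. Depth is unknown, so what it limits cannot be given.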
